A study of Mus musculus with 23 samples.

Results

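A set of 290 regions of open chromatin was examined that had a peak in colon epithelium and in few or no libraries of duodenal epithelium of the mouse. Regions were made by merging the peaks of all 23 libraries, which gave 149024 regions, and the 290 were chosen by the authors' deposited peak calls: a peak in at least 5 of the 6 juvenile and adult colon libraries and in at most 3 of the 15 duodenum libraries. They made up 290 of the 13390 regions that met the colon criterion, and the remaining 13100, called other colon regions here, had a peak in 4 or more duodenum libraries. The calls that chose the regions describe them and support nothing further. The 2 geriatric proximal colon libraries chose no region, so the calls there were an outcome.

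ATAC-seq uses a transposase that inserts sequencing adapters into DNA that is not wrapped tightly in nucleosomes, so that reads pile up over active promoters and enhancers. Duodenum and colon are lined by a continuous epithelium that is renewed from crypts, but the duodenum absorbs nutrients across villi whereas the colon lacks villi, recovers water and salt and secretes mucus. Cells of each segment keep their identity through enhancers that are open in one segment and closed in the other.

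The study compared ages and gut segments. Juvenile colon came from mice aged 15 days, with 6 pups combined per library, adult colon from mice aged 90 days and geriatric proximal colon from mice aged 21 months, with 2 mice combined per library in each case. Juvenile duodenal epithelium was taken whole at 12 days, and adult (90 days) and geriatric (21 months) duodenum was separated into villus and crypt fractions. All groups were described as epithelial cells, and no strain, genotype or treatment is given in the labels used here. Juvenile and adult colon labels name no part of the colon, and per the labels' protocols that tissue was rotated in a chelation buffer whereas geriatric proximal colon was rotated in EDTA in PBS. The label text used here breaks off in the description of the first buffer, so later steps for juvenile and adult colon are not given. Age, part of the colon and preparation therefore cannot be told apart in any comparison with geriatric proximal colon. Geriatric proximal colon had 2 libraries, numbered 1 and 3, and the other groups 3 each.

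With 1 read kept per position, peak calling rested on 14.4 to 47.9 M reads in a library. Colon lists held 17377 to 32855 peaks in juvenile and adult colon and 17026 and 11355 in geriatric proximal colon, fewer than the 35105 to 60519 peaks of the duodenum lists. A region without a call is one in which the authors' caller found no peak at that depth, and accessibility there was not measured as absent. The series description calls the replicates biological but counts 9 mice in all, fewer than the colon libraries alone combined, so which libraries share animals is unclear. The SDs therefore describe how far libraries of a group varied, which need not equal the variation between separate animals and may in part be technical. The p-values rest on exchanging libraries between groups and likewise need not hold for separate animals.

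Colon regions without duodenal calls were uncommon. Of the 13390 colon regions, 9007 were called in every one of the 15 duodenum libraries and 119 in none of them. A further 47 of the 290 had a peak in 1 duodenum library, 57 in 2 and 67 in 3. Just outside the limit, 84 colon regions had a peak in 4 duodenum libraries and 114 in 5. On the colon side, 113 of the 290 had a peak in all 6 libraries and 177 in 5, and 46 combined all 6 colon libraries with no duodenum library.

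**Figure D1:**
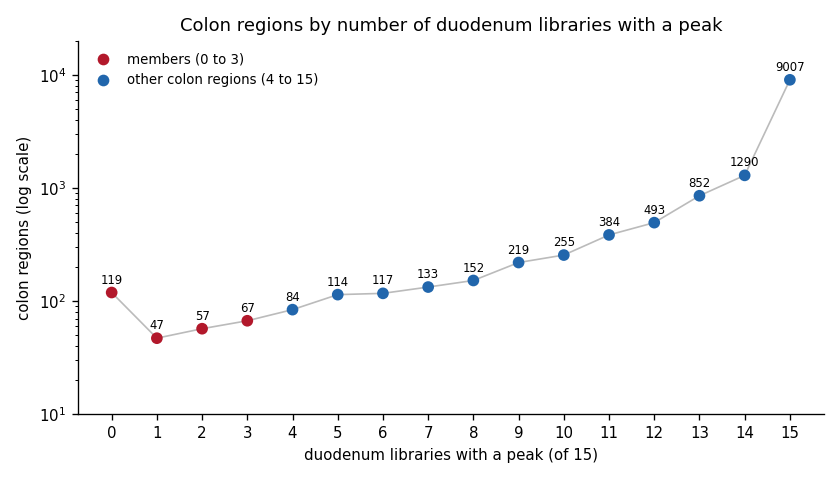
Number of colon regions (log axis) by the number of duodenum libraries, out of 15, with a peak in the region; red points are the 290 regions chosen, blue points the other colon regions. Most colon regions lie at 15 libraries (9007), and the count at 0 (119) is above the 47 at 1.

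The regions were weaker and narrower than other colon regions. Their median width was 457 bp, with the middle 50% between 368 and 544 bp, against 725 bp for other colon regions. A width spans the merged peaks of all libraries, so regions called in more libraries can be wider for that reason alone. Strength was described by the percentile rank of each peak by the authors' −log10 p within its own library, where 100 is the strongest. Averaged over the 6 colon libraries, the ranks had a median of 44.1 over the 290 regions and 67.8 over other colon regions. The median fold enrichment given by the authors' caller was 5.39, compared with 7.60. Summits lay close together across colon libraries, with 91.2% of the colon peaks in these regions within 100 bp of the region's median colon summit. These values come from the calls that chose the regions and carry no test.

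Juvenile colon libraries 1, 2 and 3 had a peak in 92.8%, 83.4% and 76.6% of the 290 regions, where 14.1%, 12.7% and 11% of all merged regions had one. Adult colon libraries 1, 2 and 3 had a peak in 92.4%, 96.2% and 97.6%, against 14%, 18.2% and 21.4% of all merged regions. Library 3 of juvenile colon lacked the most of them, 68 of 290. All of this follows from the rule.

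Within the duodenum, peaks in the 290 regions occurred in juvenile duodenum, villus and crypt libraries. They numbered 362 over the 15 libraries and fell in 171 regions. Of these regions, 38 had peaks in juvenile duodenum libraries alone, 36 in villus libraries alone, 37 in crypt libraries alone and 60 in more than 1 kind of library. Of the 67 regions with 3 duodenum libraries, 10 had all 3 in juvenile duodenum, 13 in villus, 9 in crypt and 35 in a mixture. Juvenile duodenum had 3 libraries and villus and crypt 6 each, so similar counts do not show an even spread. The same counts were not made over all merged regions. The duodenal peaks had a median rank of 22.7 within their libraries, compared with 80.5 for duodenal peaks in other colon regions. In 79.6% of cases the duodenal summit lay within 100 bp of the colon summit.

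Because the rule used the duodenal calls and capped them at 3, the shares of each duodenal group are given as a description, with no test. A high share in one group leaves less room in the others. Peaks in the regions were set side by side for crypt, which holds the dividing cells, and villus, which carries the differentiated cells. The 6 villus libraries had a peak in 3.45% (lowest), 6.72% (median) and 11.4% (highest) of the 290 regions. The 6 crypt libraries had 4.14% (lowest), 6.38% (median) and 14.5% (highest), so the groups overlapped over most of their range. Of all merged regions, 32.7%, 30.8% and 25.8% had a peak in adult villus libraries 1, 2 and 3 and 22.9%, 26.8% and 24.8% in geriatric villus. The crypt libraries had a peak in 31.8%, 21.5% and 35.3% of them in adults and 37.2%, 24.4% and 23.8% in geriatric mice. The means were 6.95% ± 3.06 in villus and 7.70% ± 3.99 in crypt (SD, n = 6 each). The means differed by 0.747 percentage points, less than the SD of either group. Within adult libraries crypt minus villus was −1.95 points, and within geriatric libraries it was 3.45 points.

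Juvenile duodenum libraries 1, 2 and 3 had a peak in 9.31%, 14.8% and 12.8% of the regions, against 27.6%, 32.9% and 30.3% of all merged regions. Their mean was 12.3% ± 2.79 (SD, n = 3), 5.34 points above the villus mean and 4.60 points above the crypt mean, and the juvenile values overlapped those of both fractions. With regions chosen again, the difference from villus was 1.12 points with lists of equal length, 1.59 points at a −log10 q of at least 5 and −18.8 points when a peak had to cover 50% of a region, so its size and sign rested on the calling of peaks. The age of 12 days and the unseparated epithelium cannot be told apart here.

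**Figure D2:**
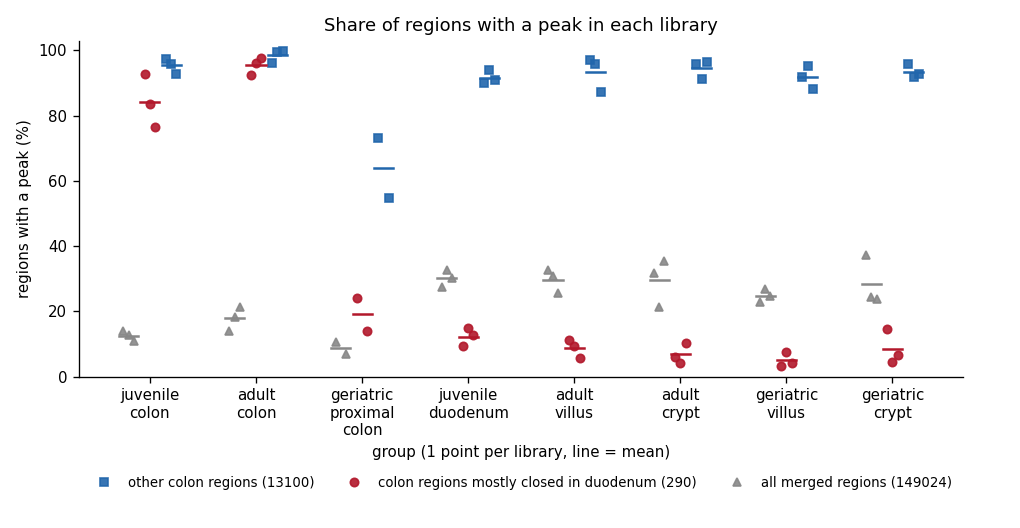
Percent of regions with a peak in each library (points, 1 per library; lines are group means) for the 290 regions in red, the 13100 other colon regions in blue and all 149024 merged regions in grey. The red points fall from 76.6% to 97.6% in juvenile and adult colon to 24.1% and 14.1% in geriatric proximal colon, and lie at or below 14.8% in duodenum.

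Most of the 290 regions had no peak in geriatric proximal colon. Library 1 had a peak in 70 of them (24.1%) and library 3 in 41 (14.1%). Of all merged regions 10.5% and 6.94% had a peak in these libraries, and of other colon regions 73.3% and 54.6%. Both libraries had a peak in 29 of the 290 (10%, against 5.31% of all merged regions), 1 of them in 53, and neither in 208 (71.7%). Neither library had a peak in 21.6% of other colon regions. With 2 libraries no test over libraries was made. When lists were cut to equal length, 1087 regions met the rule and 45.0% and 37.1% of them had a peak in libraries 1 and 3, and when a peak had to cover 50% of a region, 703 did and the shares were 14.4% and 2.99%. In bulk tissue, fewer cells with an open region and less opening per cell cannot be told apart.

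Weak regions were called less often in geriatric proximal colon in both sets, so shares were also read within 4 classes of equal size, cut by the mean colon rank over all 13390 colon regions. In the weakest class, with mean ranks up to 51.4, lay 198 of the 290 regions, and 20.2% and 10.1% of them had a peak in libraries 1 and 3. Other colon regions of that class had 48.7% and 28.4%. In the second class the 77 regions had 29.9% and 18.2%, against 60.9% and 36.4%. In the third class the 15 regions had 46.7% in each library, against 83.6% and 61.7%, and the strongest class held none of the 290. In each class that held any, and in both libraries, the share of the 290 regions was below that of other colon regions. Ranks were not equal within classes: the median mean rank was 36.2 for the 290 regions and 42.1 for other colon regions in the weakest class, 56.8 and 59.4 in the second and 72.9 and 75.4 in the third. The 290 regions were also narrower, and the part of rank and width in the lower share was not tested.

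**Figure D3:**
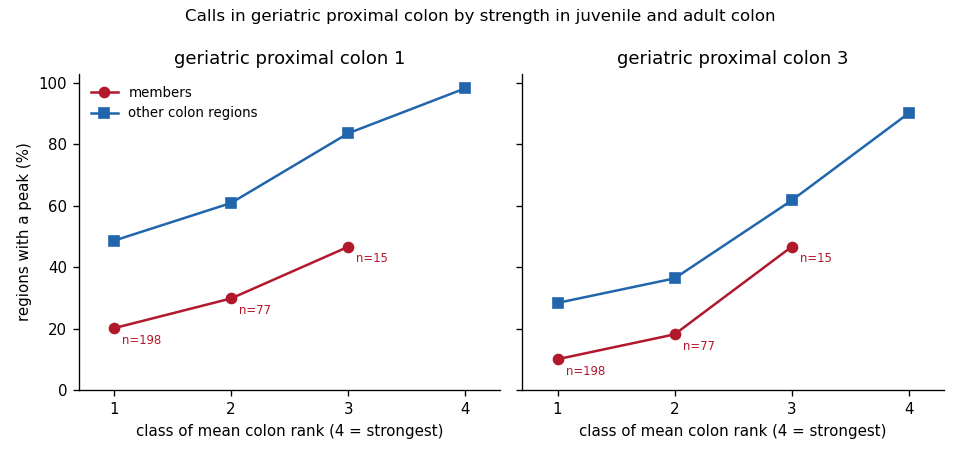
Percent of regions with a peak in geriatric proximal colon library 1 (left) and 3 (right) by class of the mean percentile rank in juvenile and adult colon, where 4 is the strongest. Red circles are the 290 regions (198, 77 and 15 in classes 1 to 3) and blue squares the other colon regions; the red line runs below the blue one in both libraries, at 20.2% against 48.7% in class 1 of library 1.

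The number of duodenal calls did not order the proximal colon calls. Regions with 0, 1, 2 and 3 duodenum libraries had a peak in library 1 in 19.3%, 27.7%, 33.3% and 22.4% of cases and in library 3 in 11.8%, 25.5%, 21.1% and 4.48%. Colon regions just outside the limit were also seldom called there: those with 4 duodenum libraries had 32.1% and 22.6%, and those with 5 had 27.2% and 13.2%, near the 24.1% and 14.1% of the 290 regions. Neither library had a peak in 58.3% and 66.7% of them. The low share was thus not particular to the 290 regions. The 29 regions called in both libraries had a median colon rank of 53.0 and a median width of 500 bp, and the 208 called in neither had 43.1 and 435 bp. Peaks of the proximal colon libraries are part of the merged width, so the widths are not independent of these calls. All 6 juvenile and adult colon libraries had a peak in 16 of the 29 (55.2%) and in 75 of the 208 (36.1%).

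Only 6 regions were called in each of the 8 colon libraries and in no library of duodenum. The highest in mean colon rank was chr7:52898825-52899410 (mm9). Its ranks were 76.5, 78.8 and 72.6 in juvenile colon, 83.4, 93.9 and 90.6 in adult colon and 79.4 and 21.9 in geriatric proximal colon. The value in proximal colon library 3 stands far below the other 7. At chr18:42789292-42789805 the ranks were 64.9, 5.3 and 32.2 in juvenile colon, 77.3, 84.4 and 90.5 in adult colon, and 76.0 and 1.3 in geriatric proximal colon. Adult values there were all above juvenile values, and proximal colon library 3 was again the lowest. At chr17:82142394-82142822 the ranks were 54.6, 40.2 and 32.2 in juvenile, 66.8, 68.5 and 73.1 in adult and 89.0 and 45.0 in geriatric proximal colon, where library 1 was the highest of all 8. The remaining 3, chr11:68932252-68932592, chr3:128692198-128692741 and chr1:34372186-34372618, had mean colon ranks of 51.5, 42.1 and 33.9. The authors' deposited lists hold all 6 as higher in geriatric proximal colon than in geriatric crypt and than in geriatric villus, against 0.348% and 1.12% of all merged regions. The 6 were chosen by calls in the same libraries, so this was partly set by the choice.

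Regions called in both geriatric proximal colon libraries with a few duodenal calls included chr5:33250210-33250749. Its ranks were 83.6, 71.0 and 61.5 in juvenile colon, 80.2, 91.5 and 95.1 in adult colon and 47.9 and 71.8 in geriatric proximal colon, and it also had a peak in juvenile duodenum libraries 2 and 3. The authors' deposited lists give it as higher in juvenile duodenum than in adult villus. At chr8:13300980-13301505, which had a peak in juvenile duodenum library 2, ranks were 61.6, 64.9 and 58.8 in juvenile colon, 87.8, 92.3 and 94.4 in adult colon and 39.0 and 7.2 in geriatric proximal colon. At chr1:71419559-71420068, called in geriatric crypt library 1, ranks were 54.6, 59.6 and 37.3 in juvenile, 87.1, 85.7 and 88.1 in adult and 93.6 and 33.8 in geriatric proximal colon. In both of these regions every adult value was above every juvenile value.

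Strong colon regions without any call in geriatric proximal colon were found as well. The region chr6:51120933-51121268 had ranks of 75.1, 82.2 and 78.4 in juvenile colon and 77.0, 72.1 and 91.6 in adult colon, and no peak in duodenum or in geriatric proximal colon. Its juvenile and adult values overlapped. The region chr1:34371365-34371913 had ranks of 82.8, 62.6 and 64.7 in juvenile and 81.3, 85.0 and 89.0 in adult colon, likewise with no other call. It lies next to chr1:34372186-34372618, the region named above that was called in all 8 colon libraries with ranks of 61.7, 38.2 and 7.1 in juvenile, 26.7, 22.4 and 47.1 in adult and 9.6 and 74.4 in geriatric proximal colon. The stronger of these neighbours in juvenile and adult colon was thus the one without a call in geriatric proximal colon. The regions chr4:115879042-115879514 and chr18:28393228-28393773 had mean colon ranks of 73.1 and 69.8. The authors' deposited lists give 3 of these 4 regions, all but the one on chromosome 18, as higher in adult colon than in geriatric proximal colon. Of all merged regions 1.17% are listed so. The 4 were chosen for lacking a call in the same geriatric proximal colon libraries, so this was partly set by the choice.

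In the full lists, the regions ranked higher in adult than in juvenile colon. Median ranks of their peaks were 38.5, 34.0 and 28.0 in juvenile colon libraries 1, 2 and 3 and 43.0, 57.6 and 66.2 in adult colon libraries 1, 2 and 3, so the groups did not overlap. The means were 33.5 ± 5.25 and 55.6 ± 11.7 (SD, n = 3 each), a difference of 22.1 (two-sided exact permutation test, p = 0.1, the smallest that 3 against 3 libraries can give). Other colon regions had medians of 64.4 to 71.1 in juvenile and 69.3 to 78.8 in adult colon, and the difference measured relative to them was 15.5 (exact permutation p = 0.1). Calls in these 6 libraries chose the regions, so the tests are not independent of that choice. Adult lists were longer on average, and ranks from lists of different lengths cannot show a change in accessibility. Within each age the median rank rose with list length. Juvenile libraries 3, 2 and 1 had 17377, 20236 and 22299 peaks, and adult libraries 1, 2 and 3 had 21271, 27986 and 32855. Between ages the order did not hold throughout, since adult library 1 had a shorter list than juvenile library 1 and a higher median rank. The part of list length in the difference was not tested. When each list was reduced to its strongest 11355 peaks and the regions were chosen again, 1087 regions met the rule and the difference was 0.995 (exact permutation p = 0.7). Without adult colon library 3 the difference was 14.7 (exact permutation p = 0.2).

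**Figure D4:**
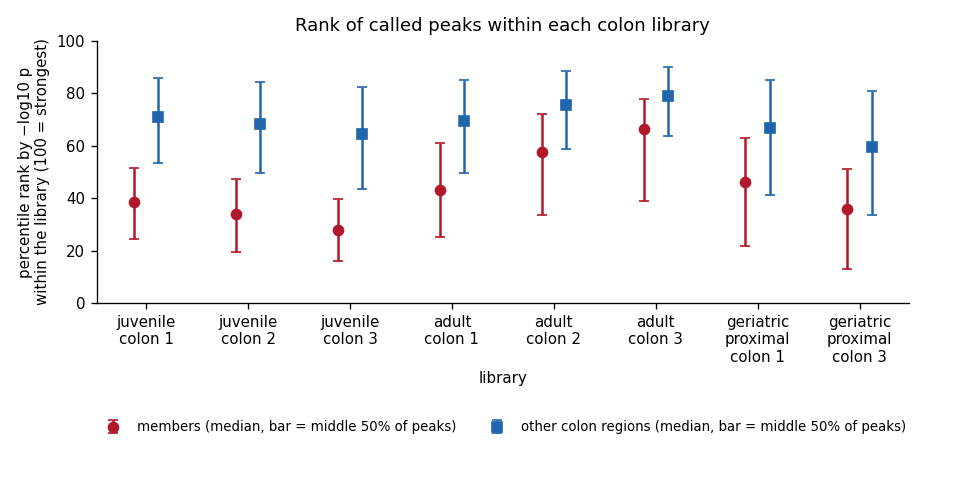
Percentile rank of called peaks by −log10 p within each of the 8 colon libraries (100 is the strongest): medians as points and the middle 50% of peaks as bars, for the 290 regions in red and other colon regions in blue. Red medians run from 28.0 to 38.5 in juvenile and from 43.0 to 66.2 in adult colon, below the blue medians in every library.

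Region by region, the mean rank was higher in adult colon in 225 of the 290 (77.6%), compared with 68.3% of other colon regions. Every called adult peak ranked above every called juvenile peak in 120 regions, and the reverse held in 17, where 24.4% and 6.69% of other colon regions did so. These counts use the full lists, which differ in length, and were not taken at equal length. The largest difference in favour of adult colon was at chr1:155771418-155771835, with ranks of 1.3 and 12.1 in juvenile libraries 1 and 2, no peak in juvenile library 3, and 70.2, 81.3 and 86.7 in adult colon. This region had duodenal peaks in 3 crypt libraries, adult crypt 3 and geriatric crypt 1 and 2, and in no villus library. The authors' deposited lists give it as higher in geriatric crypt than in geriatric villus. At chr17:30126629-30127102 ranks were 49.6 and 7.5 in juvenile libraries 1 and 2 and 88.5, 91.8 and 95.1 in adult colon. At chr13:93577807-93578284 they were 46.5, 5.3 and 26.6 in juvenile and 82.4, 85.4 and 92.9 in adult colon, and at chr19:4957909-4958509 they were 27.8 and 8.2 in juvenile libraries 1 and 2 and 69.3, 81.1 and 87.8 in adult colon. The authors' deposited lists hold these 4 as higher in adult than in juvenile colon, which was partly set by choosing them for this difference.

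In the other direction, chr7:6680925-6681662 had ranks of 78.2, 65.6 and 58.0 in juvenile colon and 7.8 and 23.3 in adult libraries 2 and 3, with no peak in adult library 1. At chr5:117575690-117576177 ranks were 61.7, 51.7 and 29.3 in juvenile colon and 22.5 and 15.6 in adult libraries 1 and 2. The authors' deposited lists hold both as higher in juvenile than in adult colon, again partly set by choosing them for this difference. The regions chr1:87356929-87357245 and chr4:10064050-10064926 were lower in adult lists by 35.7 and 33.4 rank points, and the authors' deposited lists hold neither in any comparison.

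Of the 290 regions, the authors' deposited lists give 33 (11.4%) as higher in adult than in juvenile colon, against 1.33% of all merged regions and 8.13% of other colon regions, and 11 (3.79%) as higher in juvenile than in adult colon, against 0.984% and 3.85%. Within the second class of colon rank the adult list held 21 of 77 regions (27.3%), compared with 9.42% of other colon regions, and within the third it held 6 of 15 (40%), compared with 9.15%. In the weakest class the shares were 3.03% and 1.49%. All 11 regions of the juvenile list were in the weakest class, where the juvenile list held 5.56% of these regions and 9.30% of other colon regions. The share held by the adult list was thus above that of other colon regions in each of the 3 classes, and that of the juvenile list was not.

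The authors' deposited lists give 37 of the 290 regions (12.8%) as higher in adult colon than in geriatric proximal colon, against 1.17% of all merged regions and 8.15% of other colon regions. They give 6 (2.07%) as higher in geriatric proximal colon, against 1.33% and 3.44%. In the second class of colon rank, the list of regions higher in adult colon held 21 of 77 (27.3%), compared with 6.94% of other colon regions, and in the weakest class it held 5.05%, compared with 1.78%. Set against juvenile colon, 45 regions (15.5%) were listed as higher in juvenile colon than in geriatric proximal colon, against 2.03% of all merged regions and 13.0% of other colon regions. In the reverse direction, 6 (2.07%) were listed as higher in geriatric proximal colon, against 0.728% of all merged regions and 1.37% of other colon regions. These comparisons share the geriatric proximal colon libraries, and the first shares adult colon with the comparison of ages above. Of the 37 and 45 regions, 36 and 44 had no peak in either geriatric proximal colon library.

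Against geriatric duodenum, the authors' deposited lists give 27 of the 290 regions (9.31%) as higher in geriatric proximal colon than in geriatric crypt, where 0.348% of all merged regions and 0.954% of other colon regions are listed. They give 31 (10.7%) as higher than in geriatric villus, where 1.12% and 1.58% are listed. Geriatric crypt and villus calls helped to choose the regions, so these shares were partly set by the rule. Of the 29 regions with a peak in both geriatric proximal colon libraries, 24 and 23 are in these lists, and of the 208 with a peak in neither, 1 and 1. No region of the 290 is in the authors' deposited lists higher in geriatric crypt (0.516% of all merged regions) or in geriatric villus (1.4%) than in geriatric proximal colon.

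The contrasts that the rule used gave 220 regions (75.9%, against 5.59% of all merged regions) as higher in adult colon than in adult crypt by the authors' deposited lists, 212 (73.1%, against 4.87%) as higher than in adult villus and 228 (78.6%, against 3.93%) as higher in juvenile colon than in juvenile duodenum. None of the 290 is in the lists higher in adult crypt (3.67% of all merged regions) or adult villus (4.66%) than in adult colon, and 1 is listed as higher in juvenile duodenum than in juvenile colon (3.86%). Nothing is read from these counts.

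Within the duodenum, the authors' deposited lists give 5 of the regions as higher in adult crypt than in adult villus, 1.72% against 2.35% of all merged regions, and none as higher in adult villus, against 2.09%. They give 12 (4.14%, against 4.54%) as higher in juvenile duodenum than in adult villus and 4 (1.38%, against 3.97%) as higher in adult villus. Set against geriatric villus, 11 (3.79%, against 3.25%) are higher in juvenile duodenum and 2 (0.690%, against 2.87%) in geriatric villus. In geriatric mice, 1 region is listed as higher in crypt than in villus and 1 as higher in villus than in crypt, where 1.38% and 2.63% of all merged regions are. Between adult and geriatric mice the authors' deposited lists hold none of the 290 in either direction, for crypt (0.0369% and 0.0416% of all merged regions) or villus (0.0248% and 0.0429%). The shares within the duodenum were near or below those of all merged regions. Other colon regions had 3.32% and 1.60% in the lists higher in juvenile duodenum than in adult and geriatric villus. These were below the 4.14% and 3.79% here, while in the remaining lists named above the 290 regions had the lower share. The rule capped duodenal calls at 3, so these shares were partly set by it and nothing further is read from them.

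The 290 regions were scattered over the genome. All chromosomes but the mitochondrial one held at least 1, and the most were on chromosome 1 with 38, chromosome 4 with 28 and chromosome 11 with 25. Per 100 colon regions, chromosome 1 had 4.82, chromosome 19 had 3.22, chromosome 4 had 3.16, chromosome 10 had 0.884 and the X chromosome 0.696. Of the windows of 500 kb that held any, 204 held 1 region and 28 held 2, and 10 regions had another within 10 kb. Regions open in all 15 duodenum libraries lay within 10 kb of 51 of the 290 (17.6%), and the median distance to the nearest was 46.5 kb. The counts within 10 kb and this distance were not taken for other colon regions or all merged regions, so nothing is read from them. Genes near the regions are not named here, since no mm9 annotation was used.

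Windows with the most regions differed in local background. The local background is the read density that the authors' caller compared each peak with. It was the density within 10 kb or the genome-wide density, whichever was larger. It was expressed relative to the genome-wide density of the same library, so it does not fall below 1, and a value of 1 is the genome-wide level. The window chr1:85000001-85500000 held 6 regions with backgrounds of 1.83 to 6.12 and a median fold enrichment of 2.97. Its regions had 9 villus calls, 2 juvenile duodenum calls and no crypt call. The window chr11:3000001-3500000 held 6 regions, of which 4 lay between 3028251 and 3085247 with backgrounds of 16.2 to 22.7 and fold enrichments of 1.53 to 2.06 in each colon library that called them. The window chr8:19500001-20000000 held 5 regions with backgrounds of 2.31 to 6.79 and a median fold enrichment of 2.95. The other members of the chromosome 11 window, chr11:3189900-3190389 and chr11:3381940-3382627, had backgrounds of 1.57 and 1.47 and median fold enrichments of 4.51 and 7.03. Apart from these, the regions of the 3 windows had raised backgrounds and low fold enrichment.

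The 4 regions in chr6:52000001-52500000 had backgrounds of 1.45 to 1.73 and a median fold enrichment of 5.23. Their backgrounds were below the raised ones of these 3 windows but above the median of 1.27 over the 290 regions. The first, chr6:52150910-52151324, had ranks of 36.4, 32.0 and 42.7 in juvenile colon, 53.7, 84.7 and 84.5 in adult colon and 79.8 in geriatric proximal colon library 1. It had duodenal peaks in 3 crypt libraries and in no villus library. The second, chr6:52163022-52163576, had no duodenal peak, with ranks of 46.2 and 22.2 in juvenile libraries 1 and 2 and 41.1, 55.5 and 64.7 in adult colon. The third, chr6:52190413-52190962, had peaks in 3 villus libraries and no crypt library, and the fourth, chr6:52210119-52211060, in 1 of each. Duodenal calls therefore fell in crypt alone, villus alone, both and neither among these neighbours. Next came 3 windows tied at 3 regions each, of which chr5:15000001-15500000 is described because it comes first by position; the others were chr11:96000001-96500000 and chr19:4500001-5000000. Its 3 regions had backgrounds of 1.83 to 2.55 and a median fold enrichment of 3.60.

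Over all 290 regions the median local background was 1.27, compared with 1.44 for other colon regions. It was over 3 in 18 of the 290 (6.21%) and in 4.15% of other colon regions. The 18 had a median colon rank of 19.9, and geriatric proximal colon libraries 1 and 3 had a peak in 2 and 0 of them. Without the 18, the shares in geriatric proximal colon were 25% and 15.1% of 272 regions, and the difference in median rank between adult and juvenile colon was 23.5 (exact permutation p = 0.1). The limit of 3 was set after seeing the data, and calls in the juvenile and adult colon libraries chose the regions. The lists also differed in length, so this p-value is no independent support.

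**Figure D5:**
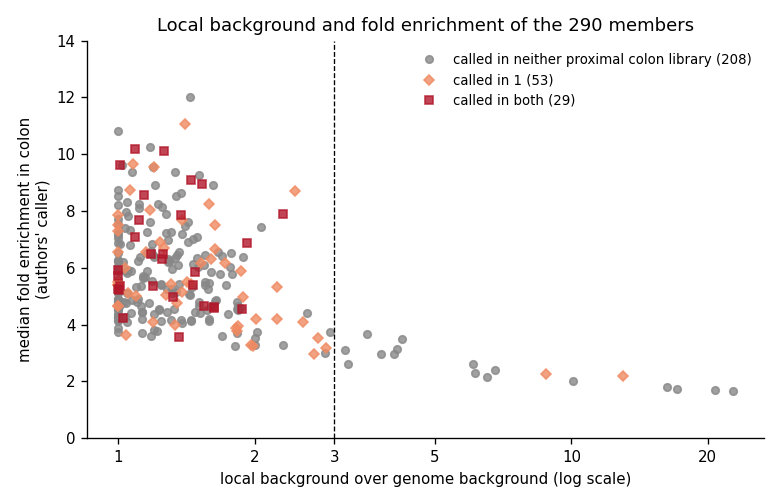
Median fold enrichment in juvenile and adult colon, as the authors' caller gave it, against the local background relative to the genome-wide level (log axis) for each of the 290 regions, marked by calls in geriatric proximal colon. The 18 regions to the right of the dashed line at 3 have low fold enrichment, and the highest background is 22.7.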

How the data were processed

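ATAC-seq peak tables of 23 libraries and 28 lists of regions, 1 per direction of a comparison, were used as the authors deposited them, in mm9 coordinates. Per the file headers, MACS2 2.1.0.20150731 was run on each library alone, with no control, a q cutoff of 0.05, 1 read kept per position and a local background over 10 kb. The deposited columns are the pileup signal at the summit (unscaled for depth), −log10 p-value, −log10 q-value and fold enrichment. Fold enrichment was taken as the ratio of pileup to local background with 1 added to each. The authors' lists give positions alone; the submitters' processing notes name DiffBind, without settings. No source used here states whether reads were shifted for the transposase.

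Peaks were merged at an overlap of 1 bp, and a region was called in a library that had a peak in it. Median percentile ranks were compared between juvenile and adult colon libraries with a two-sided exact permutation test (Python 3.11.15, numpy 2.4.6, pandas 2.3.3). The 3 permutation tests planned on duodenal shares are not reported, because the rule used the duodenal calls, and those shares are described only. The caller's formula was inverted to obtain the local background from pileup and fold enrichment, with an effective genome size of 1.87e+09. The code was tested on simulated data. The regions, lists and tests were chosen with earlier results of these data known. Regions were named by rule: peaks in all 8 colon and no duodenum library, up to 4 with the largest difference between adult and juvenile ranks each way, up to 4 of the strongest called in both or neither geriatric proximal colon library, and the 5 windows of 500 kb with most regions, ties going by position. Alternatives were a −log10 q of at least 5, lists of equal length, a peak covering 50% of a region, windows of 100 bp either side of summits, a stricter rule, shares relative to all merged regions, rank by fold enrichment, each library left out, and, chosen after seeing the data, a local background of at most 3 and ranks relative to other colon regions. No mm9 genome or annotation was at hand, so gene names, distances to starts, gene lists and motifs, planned as well, are not reported.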

Additional observations from a re-analysis of the deposited data

How the results depend on the processing

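Under the alternatives, members were chosen again. The 290 regions became 1087 with lists of equal length, 703 when a peak had to cover 50% of the region and 46 when all 6 colon and no duodenum library were required. With lists of equal length the share in geriatric proximal colon (mean of both libraries, 19.1%) was 41.0% and juvenile duodenum minus crypt was −1.36 points. With 50% cover these were 8.68% and −0.735 points, crypt minus villus was −18.0 points and juvenile duodenum minus villus −18.8 points. Crypt minus villus was −1.15 points at a −log10 q of at least 5 and −1.95 points within adult libraries. Juvenile duodenum minus villus was 1.12 points with lists of equal length, 1.59 at a −log10 q of at least 5, 5.82 with summit windows and 5.82 with a local background of at most 3. With shares divided by those of all merged regions, juvenile duodenum was above villus by 0.157 and above crypt by 0.148. The duodenal differences are descriptions, since the rule used those calls. The cause of these shifts was not tested. Leaving out each library in turn gave 290 to 574 regions (441, 546 and 574 without juvenile colon libraries 1, 2 and 3, when 4 of 5 colon libraries were required). It gave −1.15 to 2.80 points for crypt minus villus, 2.56 to 10.2 for juvenile duodenum minus villus, 2.35 to 8.95 for juvenile duodenum minus crypt, 14.1% to 24.1% for geriatric proximal colon and 14.7 to 24.7 for the adult minus juvenile rank. Crypt minus villus turned negative without juvenile colon 2 (−0.0916), without adult villus 1, 2 or 3 (−0.556, −0.873 and −0.639) and without geriatric villus 1, 2 or 3 (−0.907, −1.15 and −1.02). Correlations were between −0.0531 and 0.135 for same-numbered libraries and between −0.161 and 0.0806 for differently numbered ones. The highest, 0.135 and 0.110 in geriatric and 0.0879 in adult mice, were of same-numbered crypt and villus libraries. All were low and numbers were not taken as pairs, but these values do not settle whether same-numbered fractions share animals. With the replicate block the differences stayed at 0.747 points (crypt minus villus, not tested) and 22.1 (rank), and the rank gave an exact sign-flip p of 0.25, the smallest that 3 pairs allow. Distances to gene starts, gene lists and motifs were not run. Depth was not tested as a limit on the calls. Kept reads and list lengths did not always go together: juvenile colon 3 had 47.9 M reads and 17377 peaks, adult crypt 1 14.4 M and 51732. Within adult colon they rose together, with 23.4, 26.6 and 38.2 M reads and 21271, 27986 and 32855 peaks in libraries 1, 2 and 3. Within juvenile colon they did not.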
